A study of Mus musculus with 18 samples.

Results

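The genes described here were 9 genes of myelin and of the oligodendrocyte lineage, *Mbp*, *Mobp*, *Cnp*, *Mag*, *Mog*, *Mal*, *Cldn11*, *Olig1* and *Olig2*, of 35823 gene symbols in the deposited table. They were chosen by name, and their 42 annotated transcripts, of 116873 in all, were summed by symbol. The libraries came from mice with an expanded CAG repeat in both copies of *Atxn2* (*Atxn2*-CAG100-KIN, here KIN) and from wild-type (WT) littermates, on a C57BL/6 background and at the age of 10 months. The knockin is present in every cell of the body. KIN and WT mice were pairs of the same sex, with more male than female pairs. From single brains, a papain digest was cleared of debris and sorted with magnetic beads. CD11b took out the microglia, then ACSA-2 the astrocytes, and the neurons were what remained after a depletion of non-neuronal cells with a cocktail of antibodies and CD31. No step selected oligodendrocytes, and the debris step is made to remove myelin. With 3 fractions, 2 genotypes and 3 libraries per group there were 18 libraries of panRNA sequencing, in which fragments from the 3′ end of each RNA are counted with molecular identifiers.

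Oligodendrocytes wrap axons with myelin, a stack of membrane whose compaction and attachment to the axon depend on a small set of very abundant proteins. *Olig1* and *Olig2* encode transcription factors that set up this lineage, and the other genes encode proteins of the sheath. *Mbp* and *Mobp* mRNA is carried into the processes of the cell and translated at the sheath. In fractions sorted for other cells, RNA of these genes can be carried over with whole oligodendrocytes, with fragments of myelin or with free RNA, and the bulk libraries cannot tell apart fewer cells of a type from less RNA per cell.

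On GRCm39, *Mbp* (ENSMUSG00000041607) spans 82493207 to 82603763 of chromosome 18 and *Mobp* (ENSMUSG00000032517) 119973770 to 120011273 of chromosome 9. *Cnp* (ENSMUSG00000006782) lies at 100465730 to 100482936 of chromosome 11, *Mag* (ENSMUSG00000036634) at 30598464 to 30614474 of chromosome 7 and *Mog* (ENSMUSG00000076439) at 37321521 to 37334350 of chromosome 17. *Mal* (ENSMUSG00000027375) lies at 127475142 to 127498615 of chromosome 2 and *Cldn11* (ENSMUSG00000037625) at 31203900 to 31218495 of chromosome 3, and *Olig1* (ENSMUSG00000046160) and *Olig2* (ENSMUSG00000039830) are neighbours on chromosome 16, at 91066660 to 91068821 and 91019435 to 91025567. All are protein-coding genes. Their reads come from the 3′ end and were not divided by length, so levels are compared between libraries and not between genes.

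Total counts lay between 2118317 and 2829969 in the astrocyte libraries, between 2334633 and 3296398 in the microglia libraries and between 761481 and 2017932 in the neuronal libraries. The 10 most abundant genes took 75.8 to 85.4% of the counts, so that 110825 to 648888 counts per library were left for all other genes. The astrocyte and microglia fractions carried their own markers: in WT libraries 7 of 7 astrocyte markers were higher in the astrocyte than in the microglia fraction, and 7 of 7 microglia markers were lower. The neuronal fraction did so only in part. Of 12 neuronal markers, 3 were higher and 6 were lower in the neuronal than in the WT astrocyte fraction, while 4 of 4 tested haemoglobin and red blood cell genes were higher in it. 1 library stood apart. In the second WT neuronal library 21 genes with at least 15 reads lay over 4-fold above each of the other 5 neuronal libraries (CPM, reads relative to the scaled library size, with 5 added), among them *Mbp*, and no other library of the 18 had such a gene within its fraction. The most abundant of them, *Akap5*, had 41720 reads there against at most 4091 in the others. *Kif5a*, a motor of axonal transport, had 144 against at most 15, *Kif1a* 155 against at most 22 and *Nefh*, a neurofilament subunit, 33 against at most 1. The summed level of the 12 neuronal markers was not set apart, at 170 CPM there and 108 to 169 CPM in the other 5. Each call on the 9 genes that changes without this library is given below both ways.

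Upstream sequence is shown for *Cnp*, *Mag* and *Mog*, the members of the list whose astrocyte libraries did not overlap between KIN and WT. Each stretch is the 250 bases before the annotated start of the transcript with the most reads, read from GRCm39 and written 5′ to 3′ on the strand of the gene, at chr11:100465480-100465729 (plus strand), chr7:30614475-30614724 (minus strand) and chr17:37334351-37334600 (minus strand). Reads from the 3′ end do not show where a transcript starts, so they do not settle this choice of start. For *Cnp* the 2 main transcripts had 1569 and 1564 reads and end at the same base, but start at 100465730 and 100466350. For *Mag* the 2 main transcripts, with 834 and 733 reads, end at 30598601 and 30598608 and start at 30614474 and 30613752. Capitals mark matches, on either strand, to letters bound by factors of this lineage, ACAAAG and ACAATG for SOX proteins, CTGGCAC and CTGGTAC for MYRF, and CAGCTG and CAGATG for OLIG and other bHLH proteins.
Cnp: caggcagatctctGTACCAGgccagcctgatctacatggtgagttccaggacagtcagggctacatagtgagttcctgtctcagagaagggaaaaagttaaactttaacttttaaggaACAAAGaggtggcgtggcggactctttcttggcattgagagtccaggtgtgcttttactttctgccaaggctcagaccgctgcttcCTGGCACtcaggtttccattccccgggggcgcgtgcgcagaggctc
Mag: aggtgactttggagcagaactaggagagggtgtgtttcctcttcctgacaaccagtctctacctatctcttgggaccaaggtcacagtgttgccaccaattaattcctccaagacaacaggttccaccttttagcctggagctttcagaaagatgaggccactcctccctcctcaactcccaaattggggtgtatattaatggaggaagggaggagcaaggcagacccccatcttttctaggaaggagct
Mog: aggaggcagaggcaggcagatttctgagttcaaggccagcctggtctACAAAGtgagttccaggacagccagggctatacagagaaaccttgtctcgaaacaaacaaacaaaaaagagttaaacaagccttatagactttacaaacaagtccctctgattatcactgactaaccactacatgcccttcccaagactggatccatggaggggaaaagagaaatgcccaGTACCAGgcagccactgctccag
The *Cnp* stretch held ACAAAG as well as CTGGCAC and, on the other strand, CTGGTAC, the *Mog* stretch held ACAAAG and, on the other strand, CTGGTAC, and the *Mag* stretch held none of these letters. Of 11740 upstream stretches of the same length, from genes measured in the astrocyte fraction, 13.6% held ACAAAG, 4.05% held CTGGCAC and 1.72% held CTGGTAC. At least 1 of the 6 motifs stood in 4 of the 9 genes and in 40.5% of all stretches. The remaining sequences of the list with a match were those of *Mobp*, with ACAAAG and CAGATG, and of *Olig1*, with ACAATG.

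The first question was where RNA of these genes was found. It was in the astrocyte fraction. All 9 genes were higher in the WT astrocyte than in the WT microglia libraries (edgeR quasi-likelihood test, adjusted *p* at most 5.68e-06), with a median log2 fold change of 4.14 against 0.04 over all 12305 genes tested, of which 13.1% were called higher. A gene was called when its Benjamini-Hochberg adjusted *p* over all genes was at most 0.05 and its log2 fold change at least 1 in size. Against the neuronal fraction 8 of the 9 were higher, with 12% of all genes called higher, and the exception was *Mbp*.

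*Mbp*, which encodes the protein that glues the cytoplasmic faces of the myelin membrane together, had 268, 492 and 287 reads in the WT astrocyte libraries and 500, 273 and 374 in the KIN ones. In microglia it had 34, 27 and 24 reads in WT and 11, 12 and 19 in KIN. In the neuronal fraction it had 3, 213 and 6 reads in WT and 13, 10 and 6 in KIN. The astrocyte libraries lay above all microglia libraries, and the single high neuronal library lay below them in reads and, at 218 CPM, above them relative to its smaller library size (89.8 to 160 CPM in the astrocyte libraries). Scaled by library size with the TMM method, this was 115 ± 39.1 CPM in WT astrocytes, 11.2 ± 1.87 CPM in WT microglia and 76.5 ± 123 CPM in WT neurons (SD, *n* = 3 each). Between the WT astrocyte and neuronal fractions the log2 difference was 0.56 (SE 0.401, adjusted *p* = 0.37), and without the second WT neuronal library, which leaves 3.24 and 7.98 CPM in WT neurons, it was 4.34 (adjusted *p* = 1.36e-12). With library totals in place of TMM *Mbp* was called as well (1.09, adjusted *p* = 0.037). It was also called between the KIN astrocyte and neuronal libraries (4.43, edgeR, adjusted *p* = 1.98e-31).

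*Mobp*, a small protein of compact myelin, had 72, 139 and 94 reads in WT astrocytes and 129, 76 and 103 in KIN astrocytes. The microglia held 8, 3 and 4 of its reads in WT and 0, 2 and 6 in KIN. The neuronal libraries held 6, 22 and 0 in WT and 6, 3 and 1 in KIN. Its highest neuronal library was again the second WT one, and no other fraction reached the level of the astrocytes. Its log2 difference between WT astrocytes and neurons was 1.67 (SE 0.401, adjusted *p* = 8.1e-04), and 3.17 without that library.

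*Cnp*, the cyclic nucleotide phosphodiesterase of uncompacted myelin, had 290, 444 and 314 reads in WT and 864, 502 and 659 in KIN astrocytes. The WT microglia held 18, 12 and 21 of its reads and the KIN microglia 14, 14 and 10, the WT neurons 7, 13 and 2 and the KIN neurons 11, 10 and 17. The KIN astrocytes thus held the most. *Mag*, an adhesion molecule on the membrane that faces the axon, had 181, 308 and 211 reads in WT and 472, 269 and 330 in KIN astrocytes. In neither of the other fractions did a library exceed 21 reads of *Cnp* or 18 of *Mag*. For both genes the microglia and neuronal libraries overlapped, and their WT levels did not pass the test of the difference between these fractions (log2 difference -0.30, SE 0.467, for *Cnp* and -0.36, SE 0.565, for *Mag*). Without the second WT neuronal library the values turned positive, to 0.29 for *Cnp* (edgeR, adjusted *p* = 0.811) and 1.02 for *Mag* (adjusted *p* = 0.476).

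*Mog*, a glycoprotein of the outer surface of the sheath, had 30, 44 and 37 reads in WT and 110, 54 and 77 in KIN astrocytes, and 0 to 2 reads in any other library. *Mal*, a proteolipid of membrane rafts, had 81, 112 and 90 reads in WT and 131, 68 and 108 in KIN astrocytes, 5, 5 and 3 in WT microglia, 0, 2 and 0 in KIN microglia, and 0 or 1 in the neuronal libraries. *Cldn11*, the claudin of the tight junctions between the layers of myelin, had 67, 140 and 91 reads in WT and 146, 84 and 147 in KIN astrocytes and 0 to 6 elsewhere. These 3 genes thus had at most 6 reads in any library outside the astrocyte fraction. Relative to WT astrocytes, *Mal* in WT microglia stood at 5.62%, beside 4.75% for *Mag* and 5.86% for *Cnp*. With 3 reads taken as the floor of a library, *Mog* was at least 9.99-fold and *Cldn11* at least 26.7-fold higher in WT astrocytes than in WT microglia.

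*Olig1* had 40, 62 and 38 reads in WT and 64, 43 and 62 in KIN astrocytes, and 0 to 2 in every other library. *Olig2* had 19, 19 and 18 reads in WT and 35, 12 and 24 in KIN astrocytes, and 0 to 4 elsewhere. The genes of the lineage factors thus had the same highest fraction as the genes of the sheath, with WT astrocytes at least 12.6-fold above WT microglia for *Olig1* and at least 5.07-fold for *Olig2*.

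**Figure D1:**
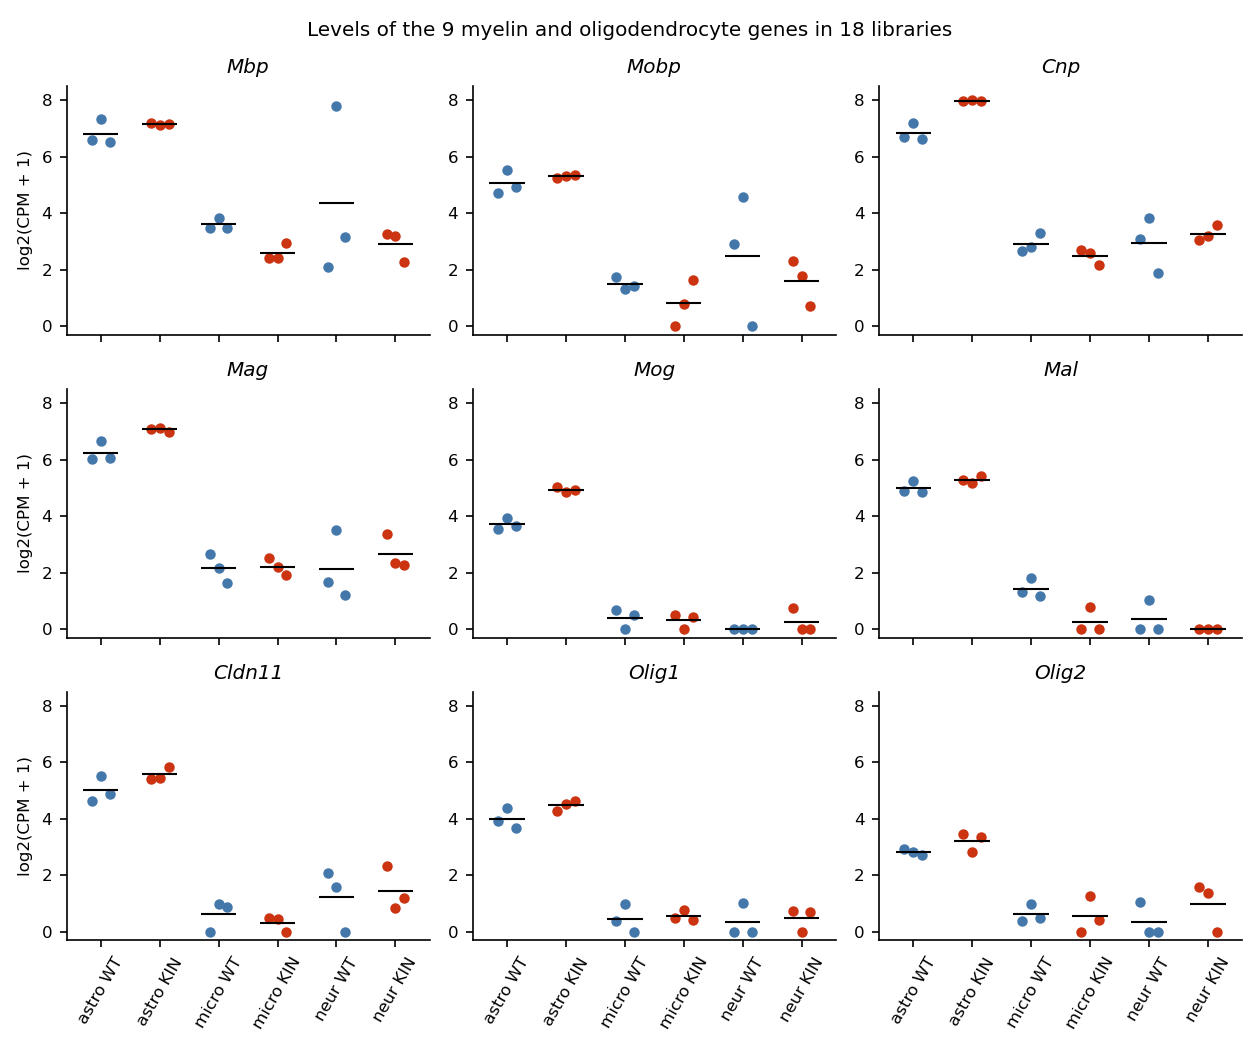
Level of each gene as log2 of CPM plus 1 (vertical axis) in the 6 groups (horizontal axis; astro, micro and neur are the astrocyte, microglia and neuronal fractions), with a point for each library, a bar at the mean of 3 libraries, WT in blue and KIN in red. The astrocyte libraries are the highest for every gene except *Mbp*, for which the second WT neuronal library, at 218 CPM, lies above them.

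Between the microglia and the neuronal fraction the 9 genes had no common order. In WT libraries *Mbp* (log2 difference -2.79, SE 0.451, adjusted *p* = 2.58e-07) and *Mobp* (-2.40, SE 0.554, adjusted *p* = 4.74e-04) were lower in microglia, with 5.19% of all genes called lower, and the groups overlapped for both. Without the second WT neuronal library neither was called, and *Mbp* turned to 0.99 (adjusted *p* = 0.256) and *Mobp* stood at -0.90 (adjusted *p* = 0.51). The other 7 genes did not pass the test, 4 of them with 3 reads or fewer in every WT library of both fractions (*Mog*, *Cldn11*, *Olig1* and *Olig2*).

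The small levels in microglia were set beside those of the other cell types. As a percentage of the WT astrocyte level, the WT microglia level was 1.88 to 9.78% over the 9 genes with a median of 5.56%. The median was 6.08% for 20 other genes of myelin and mature oligodendrocytes and 3.19% for 7 astrocyte markers. It was 52.4% for 12 neuronal markers and 54.6% for 5 endothelial and pericyte markers. In KIN libraries the medians were 2.28% for the 9 genes, 3.75% for the other myelin genes, 2.44% for the astrocyte markers, 55.3% for the neuronal markers and 21.5% for the endothelial and pericyte markers. In both genotypes, then, the medians of the myelin genes were near that of the astrocyte markers and below that of the neuronal markers. Single genes of the lists overlapped. In WT the lowest neuronal marker was *Snap25* (35.9%), with 2 of the 20 other myelin genes above it, *Sirt2* (44.6%) and *Trf* (43.2%), and none of the 9. In KIN it was *Tubb3* (2.36%), alone at that level, with 4 of the 9 genes (*Mbp*, *Mobp*, *Mag* and *Olig2*) and 12 of the 20 above it. The next lowest in KIN was *Nefl* (26.5%), with 1 of the 20, *Trf* (36.8%), and none of the 9 above it. This is a description over genes of the same libraries, and a common source of the 2 lists was not tested.

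**Figure D2:**
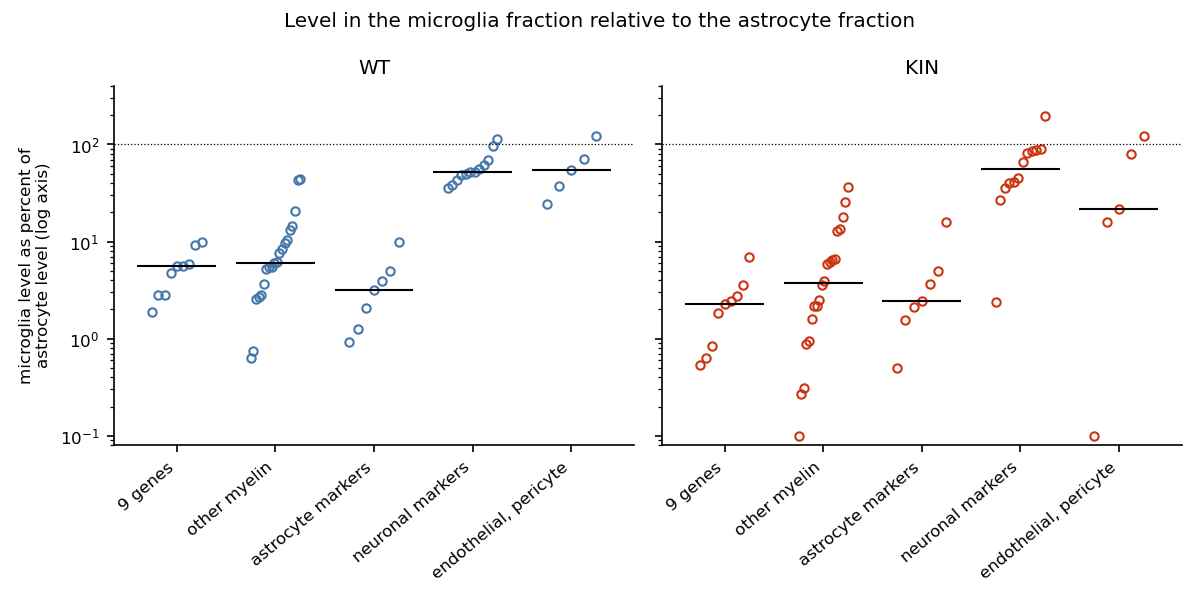
Mean level in the microglia fraction as a percentage of the mean level in the astrocyte fraction (vertical axis, log scale) for each gene of 5 lists (horizontal axis), WT on the left and KIN on the right, with a bar at the median of the list and a dotted line at equal levels; a percentage of 0 is drawn at 0.1. The medians of the 9 genes, the other myelin genes and the astrocyte markers lie at 2.28 to 6.08% over both genotypes and those of the neuronal markers at 52.4 and 55.3%, with some points of the lists overlapping.

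Summed over the 9 genes, WT astrocyte libraries held 369, 571 and 369 CPM and KIN astrocyte libraries 705, 707 and 721 CPM. WT microglia libraries held 25.8, 29.7 and 25.9 CPM and KIN microglia libraries 15.9, 16.8 and 16.0 CPM. WT neuronal libraries held 23.8, 268 and 12.0 CPM and KIN ones 36.6, 25.1 and 21.1 CPM. The genotypes did not overlap in the astrocyte fraction, where KIN was higher, nor in the microglia fraction, where KIN was lower, and they overlapped in neurons. Both differences moved with the scaling. As a share of all counts, the WT astrocyte libraries held 490, 765 and 557 ppm and the KIN libraries 866, 557 and 753 ppm, and the WT microglia libraries held 30.7, 18.2 and 26.1 ppm and the KIN ones 13.6, 18.7 and 17.8 ppm. On this scale the genotypes overlapped in both fractions.

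The next comparison asked which of these genes differed between KIN and WT in the astrocyte fraction. *Cnp* and *Mog* were higher in KIN. *Cnp* went from 102, 144 and 98.3 CPM in WT to 249, 257 and 252 CPM in KIN (log2 fold change 1.12, SE 0.220, adjusted *p* = 3.09e-04). *Mog* went from 10.6, 14.3 and 11.6 CPM in WT to 31.7, 27.6 and 29.5 CPM in KIN (log2 fold change 1.27, SE 0.228, adjusted *p* = 1.08e-04). Thus 2 of the 9 genes were called higher and none lower, while 2.43% of all 11751 genes were called higher and 6.42% lower. *Mag* passed the test but not the fold threshold, with 63.8, 100 and 66.0 CPM in WT and 136, 138 and 126 CPM in KIN (log2 fold change 0.78, SE 0.216, adjusted *p* = 0.0107), and without the second WT astrocyte library its fold change was 1.02 (adjusted *p* = 7.21e-05). For *Cnp*, *Mag* and *Mog* all KIN libraries lay above all WT libraries, which held for 13.8% of all genes.

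The other 6 genes did not pass the test, and their KIN and WT libraries overlapped. *Mbp* was at 94.5, 160 and 89.8 CPM in WT and at 144, 140 and 143 CPM in KIN (log2 fold change 0.30, SE 0.221, adjusted *p* = 0.441). *Mobp* had a log2 fold change of 0.19 (SE 0.218, adjusted *p* = 0.654), *Mal* of 0.28 (SE 0.210, adjusted *p* = 0.453) and *Cldn11* of 0.51 (SE 0.223, adjusted *p* = 0.128). *Olig1* stood at 0.45 (SE 0.235, adjusted *p* = 0.228) and *Olig2* at 0.48 (SE 0.296, adjusted *p* = 0.321). For *Mbp*, *Mobp* and *Mal*, the WT library with the most reads, the second, lay above at least 1 KIN library, and the 3 KIN libraries lay closer together than the 3 WT libraries did (for *Mbp* 142 ± 2.23 against 115 ± 39.1 CPM, SD, *n* = 3).

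The scaling bears on every one of these values. With library totals in place of TMM, an alternative chosen after seeing the data, the median log2 fold change of all genes in this comparison moved from -0.01 to -0.42, and no member was called. *Cnp* was then at 0.69 (edgeR, adjusted *p* = 0.0312), *Mog* at 0.85 (adjusted *p* = 0.0435) and *Mag* at 0.36 (adjusted *p* = 0.388). The values of *Mbp*, *Mobp* and *Mal* turned negative (-0.12, -0.24 and -0.14). Each of these values lay about as far above the median of all genes as before. Under DESeq2's size factors, and without the 10 most abundant genes, the calls were the same 2 as with TMM.

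**Figure D3:**
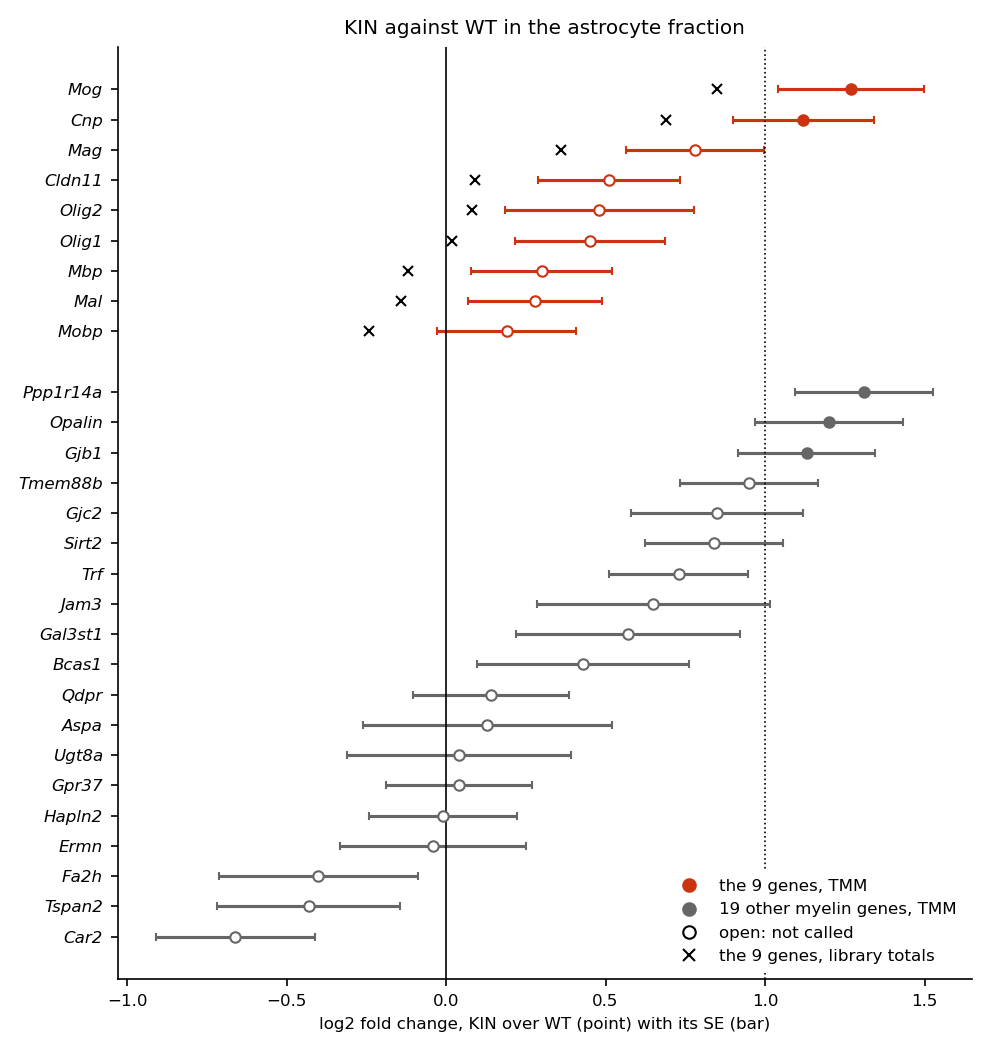
Log2 fold change of KIN over WT in the astrocyte fraction (horizontal axis) for the 9 genes (red) and 19 of the other myelin genes (grey), with bars of 1 SE, 3 libraries a group, filled points for called genes, a dotted line at the fold threshold of 1 and crosses for the 9 genes scaled by library totals. *Mog* (1.27) and *Cnp* (1.12) lie past the threshold, *Mobp* (0.19) lies lowest of the 9, and the crosses lie to the left of the points.

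A view that needs no scaling is the make-up of the reads of the 9 genes within each library. It was looked at after the fold changes were known, and it is a description. *Cnp* gave 27.7, 25.2 and 26.6% of these reads in WT astrocytes and 35.3, 36.4 and 35.0% in KIN astrocytes. *Mbp* gave 25.6, 28.0 and 24.3% in WT and 20.4, 19.8 and 19.9% in KIN. *Cnp* was thus above and *Mbp* below its WT share in each KIN library. The shares of *Mog* (2.83 ± 0.319% in WT, 4.16 ± 0.296% in KIN, SD, *n* = 3) were also higher, and those of *Mobp* (7.58 ± 0.614 and 5.41 ± 0.129%) and *Mal* (7.24 ± 0.761 and 5.33 ± 0.404%) lower, without overlap. The shares of *Mag*, *Cldn11*, *Olig1* and *Olig2* overlapped.

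Per 100 reads of *Mbp*, the WT astrocyte libraries held 108, 90.2 and 109 reads of *Cnp* and the KIN libraries 173, 184 and 176. The same ratio for *Mag* was 67.5, 62.6 and 73.5 in WT and 94.4, 98.5 and 88.2 in KIN, and for *Mog* it was 11.2, 8.94 and 12.9 in WT and 22.0, 19.8 and 20.6 in KIN. Both genotypes were separate for these 3 genes. They were chosen knowing that their levels did so as well, and no test is given. An exact permutation test of 3 libraries against 3 cannot go below *p* = 0.1. How often such ratios or shares separate over all genes was not computed. *Mobp* kept overlapping ratios to *Mbp*, at 26.9, 28.3 and 32.8 in WT and 25.8, 27.8 and 27.5 in KIN, and so did *Mal*, *Cldn11*, *Olig1* and *Olig2*.

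**Figure D4:**
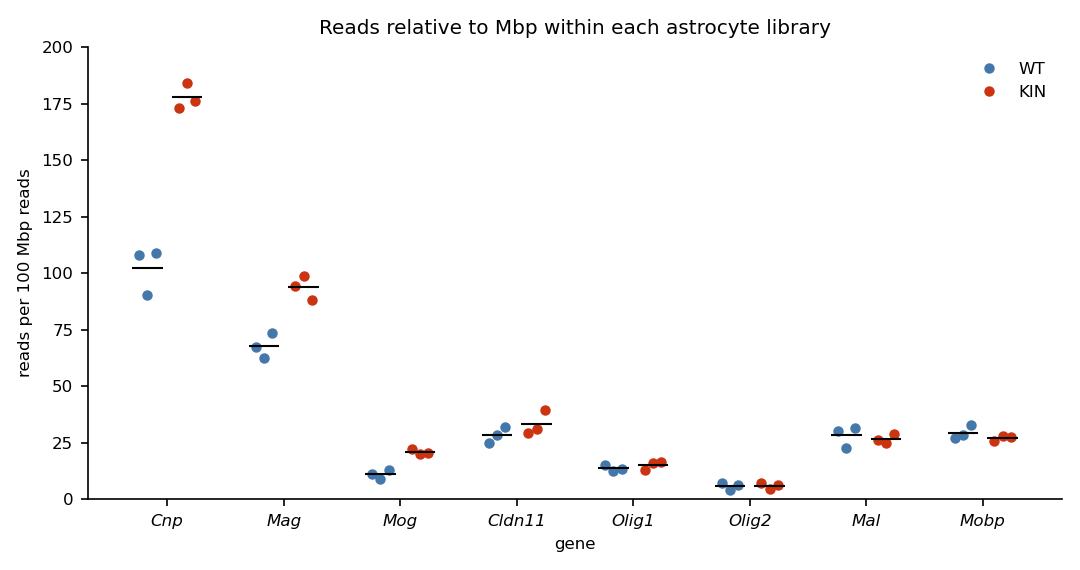
Reads of each gene per 100 reads of *Mbp* in the same astrocyte library (vertical axis), with a point for each of 3 WT (blue) and 3 KIN (red) libraries and a bar at the mean. *Cnp* (means of 103 and 178), *Mag* (67.9 and 93.7) and *Mog* (11.0 and 20.8) are separate between genotypes, and *Mobp* (29.3 and 27.1) overlaps.

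The other genes of myelin and mature oligodendrocytes were split in the same fraction. Of 20, all tested, 3 were called higher in KIN astrocytes and none lower, beside 2.43% of all genes called higher. Without the fold threshold 7 were higher by the adjusted *p*, the 3 called genes among them. Of the 20 values 15 were positive and 5 negative. The called genes were *Opalin*, a membrane protein of the paranodal loops (log2 fold change 1.20, adjusted *p* = 2.58e-04), *Gjb1*, a gap junction protein (1.13, adjusted *p* = 2.19e-04), and *Ppp1r14a*, a phosphatase inhibitor (1.31, adjusted *p* = 2.75e-05). *Trf*, the iron carrier transferrin, stood at 0.73 (adjusted *p* = 0.0184), *Sirt2*, a deacetylase of myelin, at 0.84 (adjusted *p* = 0.00614) and *Tmem88b* at 0.95 (adjusted *p* = 0.00187). Among the negative values were those of *Car2*, a carbonic anhydrase, with means of 19.1 CPM in WT and 12.4 CPM in KIN (-0.66, adjusted *p* = 0.0691), and *Tspan2*, a tetraspanin, with 9.37 and 7.01 CPM (-0.43, adjusted *p* = 0.372), which did not pass the test. The list's median log2 fold change was 0.29 and that of the 9 genes 0.48, against -0.01 over all genes. The membership of both lists was set with earlier results of these data known.

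Genes of the precursors and of the transcription of the lineage were few and low. Of 11 genes of precursors and early lineage 7 were tested, with 4 positive and 3 negative values, and 2 were called, both higher in KIN astrocytes, beside 2.43% of all genes. They were *Sox10*, the factor that drives myelin genes together with OLIG2 (log2 fold change 1.07, adjusted *p* = 0.00231), and *Enpp6*, a choline phosphodiesterase of newly formed oligodendrocytes (adjusted *p* = 0.0398), which had 1 to 3 reads per WT library, at or under the floor, and 4 to 10 per KIN library. *Pdgfra*, the growth factor receptor that marks precursors, had 8, 1 and 6 reads in WT and 0, 1 and 0 in KIN astrocytes and did not pass the test (adjusted *p* = 0.059). *Cspg4*, *Nkx2-2*, *Vcan* and *Cacng4* did not pass it either. Of 6 transcription factors, which share *Sox10* and *Nkx2-2* with that list, *Sox10* was called, *Nkx6-2* was higher by the adjusted *p* alone (0.82, adjusted *p* = 0.0120), and *Myrf* (0.61, adjusted *p* = 0.0712) and *Zfp488* (-0.45, adjusted *p* = 0.264) did not pass.

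Markers of other cells moved in the same libraries. Of 7 astrocyte markers 3 were called lower in KIN astrocytes, *Gja1* (log2 fold change -1.39), *Slc1a2* (-1.34) and *Fgfr3* (-1.17), and *Gfap* was higher by the adjusted *p* alone (0.80). The summed level of this list was 493 to 728 CPM in WT and 277 to 300 CPM in KIN. Of 12 neuronal markers 11 were called lower, with sums of 200, 52.6 and 155 CPM in WT and 38.3, 37.3 and 48.2 CPM in KIN. The other, *Tubb3*, a neuronal tubulin, was higher by the adjusted *p* alone (0.92, adjusted *p* = 0.0219, with means of 7.76 CPM in WT and 15.1 CPM in KIN). The second WT astrocyte library, the highest of the WT libraries in the 9 genes, was the lowest of them in neuronal markers. Of 7 microglia markers 3 were tested and 1, *Itgam*, was called lower, and none of 4 tested endothelial and 4 tested red blood cell genes was called. The part of these shifts in the values of the myelin genes was not tested.

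In the microglia fraction the 9 genes gave no call between KIN and WT. Only *Mbp*, *Mobp*, *Cnp*, *Mag* and *Mal* reached 5 reads in 2 libraries and were tested, with 0.739% of 10831 genes called higher and 0.785% called lower in edgeR. At an unadjusted *p* of at most 0.05 there were 2 of the 5, both lower, beside 674 higher and 624 lower of the 10831 genes, and DESeq2 called none of the 5. *Mbp* was at 10.1, 13.4 and 10.2 CPM in WT and at 4.36, 4.30 and 6.61 CPM in KIN, so that each KIN library lay below each WT library, as held for 7.53% of all genes (log2 fold change -1.10, SE 0.297, adjusted *p* = 0.0550). *Mal*, with 3 reads or fewer in each KIN library, was at least 1.58-fold lower there (adjusted *p* = 0.281). *Mobp* (-0.94, SE 0.756), *Cnp* (-0.51, SE 0.338) and *Mag* (-0.05, SE 0.408) overlapped between genotypes. *Mog*, *Cldn11*, *Olig1* and *Olig2* had 0 to 4 reads per library, and a difference was not detectable at this depth.

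In the same microglia libraries 7 of 12 neuronal markers were called lower in KIN (summed levels of 98.5, 30.2 and 92.0 CPM in WT and 16.3, 20.1 and 12.5 CPM in KIN), and so were *Slc1a2* of the astrocyte markers (log2 fold change -2.66) and *Cldn5* of the endothelial markers (-2.12). The summed astrocyte markers were 22.3 to 27.5 CPM in WT and 15.5 to 17.9 CPM in KIN. Their part in the lower *Mbp* was not tested. The other 20 myelin genes, 6 of them tested, gave no call. Their sum, most of it *Trf*, was 81.0, 115 and 78.4 CPM in WT and 136, 106 and 96.7 CPM in KIN, and thus overlapped.

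In the neuronal fraction *Mbp*, *Mobp*, *Cnp* and *Mag* were tested and none was called, with 0.0148% of 6765 genes called either way. *Mbp* was at 3.24, 218 and 7.98 CPM in WT and at 8.64, 8.09 and 3.84 CPM in KIN. Its log2 fold change of -3.67 (SE 0.755, adjusted *p* = 0.0549) rested on the second WT library, without which it was 0.07 (adjusted *p* = 0.993). *Mobp* went from -2.26 (adjusted *p* = 0.562) to -0.77 (adjusted *p* = 0.927) without that library. *Cnp* (log2 fold change -0.09, SE 0.472) and *Mag* (0.06, SE 0.645) overlapped, and without that library they stood at 0.48 (adjusted *p* = 0.919) and 1.41 (adjusted *p* = 0.848). Without that library the summed level of the 9 genes was 12.0 and 23.8 CPM in WT and 21.1 to 36.6 CPM in KIN neurons, and the genotypes overlapped. By the unadjusted *p* of at most 0.05, *Mbp* and *Mobp* were lower, beside 176 genes higher and 165 lower of the 6765, and DESeq2 called neither.

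The second WT neuronal library was high in *Mbp* and *Mobp* and not to the same degree in the rest. It held 213 reads of *Mbp* and 22 of *Mobp*, and 13 of *Cnp*, 10 of *Mag*, 1 of *Mal*, 2 of *Cldn11* and none of *Mog*. The astrocyte libraries held 90.2 to 184 reads of *Cnp* per 100 of *Mbp*. The sum of the 20 other myelin genes was 45.1 CPM there and 30.7 to 45.5 CPM in the other 5. *S100b*, a calcium-binding protein of glia, had 53 reads there against at most 6, and *Fth1*, the ferritin heavy chain, 125 against at most 27. Whether these shared an origin was not tested.

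The annotated transcripts of *Mbp*, on chromosome 18, took different shares of its reads in the 3 fractions. The reads were counted for 16 transcripts, and those of 7 with a common 3′ end, between positions 82603751 and 82603762 of GRCm39, were spread nearly evenly, so they were taken as 1 class. The transcript *Mbp*-205 has its own 3′ end at 82576828 and an annotated start at 82493207. Most of the 7 transcripts with the common end start further downstream, between 82572595 and 82572705. Whether the reads of *Mbp*-205 shared a cell source with those of the 7 was not tested. The last exon of *Mbp*-205 runs from 82572445 to 82576828 and holds 4384 bases, 3953 of them in no other of the counted *Mbp* transcripts. *Mbp*-205 took 18, 32 and 32 reads in WT astrocytes and 48, 19 and 29 in KIN astrocytes. It took 8, 8 and 3 in WT microglia and 4, 3 and 8 in KIN microglia, and 1, 3 and 3 in WT and 5, 2 and 5 in KIN neurons. As a share of *Mbp* reads this was 8.11% of 2194 in astrocytes and 26.8% of 127 in microglia. In neurons it was 3.15% of 222 reads in WT and 41.4% of 29 reads in KIN. The WT value rests on the second library, with 3 of 213 reads, and the other 2 WT libraries had 1 of 3 and 3 of 6.

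The 7 transcripts with the common end held most of the reads by which *Mbp* differed in microglia and in the second WT neuronal library. They had 24, 16 and 18 reads in WT microglia and 6, 8 and 8 in KIN microglia. The reads of *Mbp*-205 overlapped there between genotypes, at 3 to 8 per library, too few to show whether it changed. Between fractions *Mbp*-205 differed as well, with 18 to 48 reads in the astrocyte libraries. In the second WT neuronal library the 7 transcripts held 206 of 213 reads, or 96.7%, with 20 to 35 on each of the 7, and in the other 5 neuronal libraries they held 1 to 7 reads. That is the share seen in astrocytes (84.0 to 89.4%) or more. In the bases of the last exon of *Mbp*-205 that the other transcripts splice out, its reads cannot be told apart from those of an unspliced precursor. For *Cnp* the 2 main transcripts end at the same base and divided its reads evenly, so no such split was possible.

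**Figure D5:**
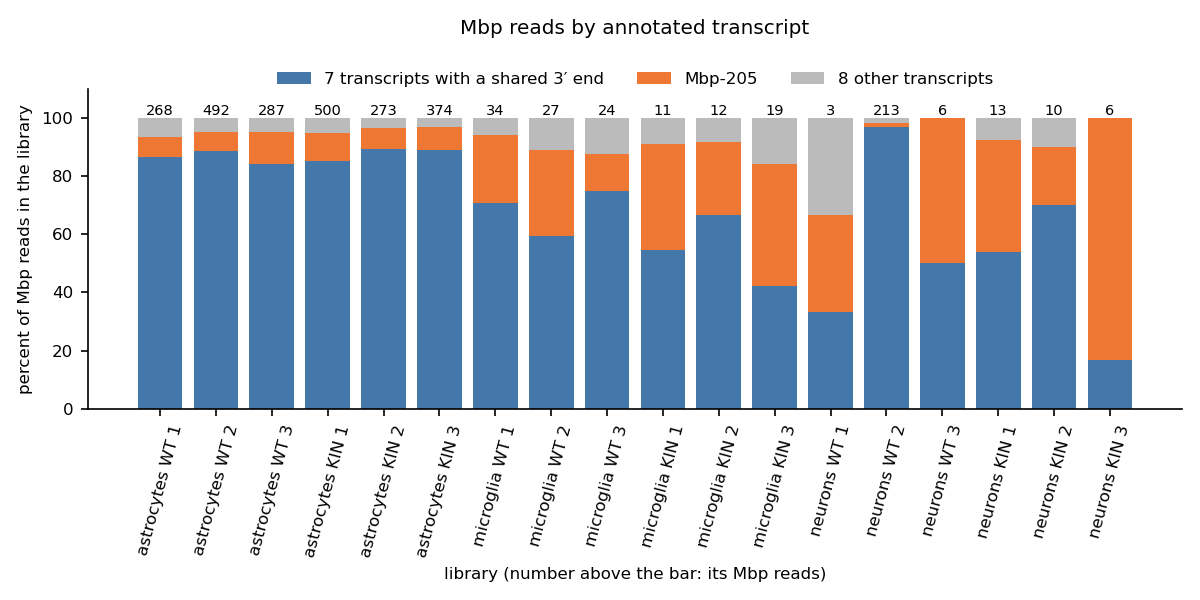
Share of *Mbp* reads (vertical axis, percent) in each of the 18 libraries (horizontal axis) that was counted on 7 transcripts with a common 3′ end (blue), on Mbp-205 (orange) and on 8 other transcripts (grey), with the number of *Mbp* reads above each bar. Mbp-205 takes 6.50 to 11.1% in astrocyte libraries and 12.5 to 42.1% in microglia libraries, and 1.41% in the second WT neuronal library.

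Whether the difference between KIN and WT was itself different between fractions was asked with an interaction term. For *Cnp* the log2 fold change in microglia minus that in astrocytes was -1.63 (SE 0.435, adjusted *p* = 0.0401), the only one of the 9 genes called, with 0.392% of 13277 genes called lower. This call was lost when any 1 of 8 of the 12 libraries was left out, and with DESeq2 (-1.64, adjusted *p* = 0.0561). *Mbp* (-1.40, SE 0.414, adjusted *p* = 0.0715) and *Mal* (-2.86, SE 0.867, adjusted *p* = 0.0777) did not pass. Between neurons and astrocytes *Mbp* (-3.83, SE 0.530, adjusted *p* = 5.22e-08) and *Mobp* (-2.33, SE 0.617, adjusted *p* = 0.0290) were called, with 0.251% of 12358 genes called lower, and neither was without the second WT neuronal library, where the values were 0.02 and -0.80. With DESeq2 on all libraries neither was called (adjusted *p* = 0.426 for *Mbp* and 0.525 for *Mobp*).

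The genes whose levels followed the 9 most closely over the 18 libraries were *Mlc1*, *Cmtm5*, *Nkain4*, *Cryab*, *Nkx6-2*, *Gjb1*, *Limch1*, *Opalin*, *Sox10* and *Rarres2*, with Pearson correlations from 0.983 to 0.969 with the mean standardized log2 CPM of the 9, among 4990 other genes. *Mlc1*, a membrane protein of astrocytes, had 16.6 to 40.9 CPM in the astrocyte libraries and at most 0.495 CPM in the others. The list therefore holds a marker of astrocytes beside genes of oligodendrocytes, and the value mostly describes presence in the astrocyte fraction. With the mean of each group taken out, over the 12 astrocyte and microglia libraries and 6210 genes, the closest were *Prex1* (0.981), *Lamp1* (0.976), *Tnik* (0.954), *H4c1*, *Galnt6*, *Afg3l1*, *Snx5*, *Lsm6*, *Smim29* and *Pigt* (0.900), none of which was in the first 10. The points share library, depth and scaling, and these correlations are descriptions.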

How the data were processed

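The deposited counts are whole numbers of reads per annotated transcript that the authors obtained from 18 libraries after removal of duplicates by molecular identifier, trimming, stepwise mapping with Bowtie2 and counting with HTSeq without strand; per the labels, the submitters' processing notes name cutadapt 4.6, Bowtie2 2.4.4, HTSeq 2.0.2 and the genome mm39. The columns with the authors' own DESeq2 fold changes and *p*-values were not used, nor were 36 other columns of per-sample values. Entries without a symbol (137, 0.0222% of the counts) stayed out.

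Counts were summed by symbol, kept at 5 or more reads in at least 2 libraries of a fit, scaled with TMM and tested with edgeR 4.0.16 (quasi-likelihood test, Benjamini-Hochberg adjustment over all genes of the fit; thresholds of 0.05 for the adjusted *p* and of 1 for the size of the log2 fold change). Each KIN against WT comparison used the 6 libraries of a fraction, the fractions were compared over the 9 WT libraries, and interactions used the 12 libraries of both fractions. CPM came from TMM over all 18 libraries. A library with 3 reads or fewer was taken as at the floor, and errors and floors cover counting and the spread between libraries only. The fractions were sorted in sequence from the same brains, but the labels do not say which replicate numbers share a brain. The fits took all libraries as independent, so the tests between fractions and the interactions leave shared brains and littermate pairs out of account. The steps were tested on simulated data.

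Beside the 9 genes, 8 lists were used (other myelin, precursor, transcription factor, astrocyte, microglia, neuronal, endothelial and pericyte, and red blood cell genes). Genes named from them were called in at least 1 KIN against WT comparison or among the 5 of the list with the highest mean count, and the 10 closest genes by correlation were named; 1 gene of the lists is not reported here by name and is included in totals; *Gfap*, *Akap5*, *Kif5a*, *Kif1a*, *S100b*, *Fth1*, *Car2*, *Tspan2*, *Pdgfra*, *Tubb3*, *C1ql1*, *Neu4* and *Gpr17* were added after their values were seen. The members and lists were chosen with earlier results of these data known. The alternatives were DESeq2 1.42.0, its size factors, library totals, no filter or a mean of at least 10 counts, no abundant genes, the adjusted *p* alone, a replicate block, other sets of libraries and each library left out. Upstream sequence was read from GRCm39, the assembly of mm39, with the GENCODE annotation.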

Additional observations from a re-analysis of the deposited data

Results flagged for a closer look

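The KIN effects of 2 fractions differed by an interaction term in 3 instances. For *Cnp*, the log2 fold change in microglia minus that in astrocytes was -1.63 (edgeR, adjusted *p* = 0.0401), with all KIN libraries above WT in astrocytes and overlapping groups in microglia. For *Mbp* and *Mobp*, the log2 fold changes in neurons minus those in astrocytes were -3.83 (adjusted *p* = 5.22e-08) and -2.33 (adjusted *p* = 0.029), and both rest on the second WT neuronal library, in which they had 213 and 22 reads.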

How the results depend on the processing

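With library totals in place of TMM, chosen after seeing the data, no member was called in the astrocyte comparison of KIN and WT (0 against 2), and 1587 genes were called lower and 38 higher against 755 and 285. The interactions then gave 0 calls for microglia and 1 for neurons. No filter gave 1 call in microglia, *Mbp*. In neurons *Mbp* was called (1 call) with DESeq2's size factors, without the 10 most abundant genes, without a filter or with all 18 libraries in 1 fit. With DESeq2 the microglia and neuronal fractions differed in 1 gene instead of 2, *Mobp*, with *Mbp* at -2.76 (adjusted *p* = 0.148), and both interactions gave 0. Between KIN libraries these fractions also differed in 1 gene, *Cldn11* (-2.79, adjusted *p* = 0.0123), and not in *Mbp* or *Mobp*. A mean of at least 10 counts left 1 call in the interaction of neurons and astrocytes. The counts over libraries left out in turn were 0 to 1 for KIN against WT in neurons, 0 to 2 for microglia against neurons, 0 to 3 for the interaction of microglia and astrocytes and 0 to 2 for that of neurons and astrocytes. The call of *Cnp* in the microglia interaction was lost when any 1 of 8 libraries was left out, and its value then lay between -1.77 and -1.38. Without the second WT neuronal library *Mbp* turned to 0.99 between microglia and neurons (-3.35 to 0.99 over the libraries left out) and to 0.02 in the neuronal interaction (-4.40 to 0.02). The 9 calls between astrocytes and microglia and the 2 in KIN astrocytes, or 3 without the second WT astrocyte library, held with each library left out. The cause of these changes was not tested, other than the fewer libraries or genes that an alternative has by construction.

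The summed levels of 437 and 711 CPM in WT and KIN astrocytes became 604 and 726 CPM with library totals. Without the 10 most abundant genes in the total they were 2280 and 3750 CPM in astrocytes, 144 and 86.8 CPM in microglia and 507 and 136 CPM in neurons, WT first. The 507 CPM rest on the second WT neuronal library, with 1340 CPM, and the other 2 had 120 and 62.4 CPM against 104 to 179 CPM in KIN. Of 1117 single values under the alternatives, 2 changed sign among those called in at least 1 of the compared fits, and values called in neither changed sign as well.

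The replicate numbers were not taken as pairs, since KIN and WT libraries of the same number deviated from their group means with correlations of only -0.12 to 0.09. Across fractions, WT astrocyte and microglia libraries of the same number had 0.09, 0.26 and 0.16 (different numbers -0.19 to 0.09), and the other pairs of fractions in either genotype -0.07 to 0.03, so that not every pair was over 0.1. With the replicate block the neuronal interaction had 1 call of the 9 instead of 2, *Mobp* being lost (-2.11, adjusted *p* = 0.059), *Mbp* was called between astrocytes and neurons (1.46, adjusted *p* = 0.00033), and 332 genes were called higher and 866 lower in KIN astrocytes.

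Depth limits the microglia and neuronal fractions, where 4 and 5 of the 9 genes stayed below the filter.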

Other observations

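The 11 genes of precursors and early lineage had a median level in WT microglia of 44.3% and in WT neurons of 108% of the WT astrocyte level, against 5.56 and 5.84% for the 9 genes, at summed reads of only 16 to 44 in the microglia and 11 to 22 in the neuronal libraries. In KIN libraries the medians were 36.3% in microglia and 60.5% in neurons. Several of the 11 were close to absent in WT astrocytes themselves, among them *C1ql1* (0.108 CPM), *Neu4* (0.226 CPM), *Gpr17* (0.542 CPM) and *Enpp6* (0.669 CPM), so their percentages rest on a few reads. *Sox10* (6.12% in WT microglia and 3.61% in WT neurons) and *Nkx2-2* (4.21 and 0%) stood at percentages like those of the 9 genes. The difference between the lists was not tested.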
